A study of Homo sapiens with 12 samples.

Results

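The difference between genotypes in the transcriptional response to a DOT1L inhibitor was measured in OCI-AML2, a cell line from a human acute myeloid leukemia with a rearrangement of KMT2A (MLL). Cells were infected with lentivirus that delivered 1 guide RNA: sgLuc, a control guide against luciferase, or sgUTX_2 or sgUTX_4, which target KDM6A, the gene of UTX. They were kept for 6 days in DMSO, the solvent, or in 1 µM SGC0946, and total RNA was sequenced. The members were all 12 libraries of the series, 2 for each combination of guide and treatment. They formed 4 groups: control DMSO (2 libraries), control SGC0946 (2), sgUTX DMSO (4) and sgUTX SGC0946 (4), with the 2 KDM6A guides as replicates of the sgUTX groups. The control cells shared with the sgUTX cells the leukemic background, the infection and a guide RNA, so an effect of any of these cannot be read from the data. The labels did not say whether replicates were grown as separate cultures, whether cells were a pool or a clone, or how completely KDM6A was edited. The p-values therefore reflect the spread among these 12 libraries alone, and part of it may be technical.

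DOT1L methylates lysine 79 of histone H3 in the body of transcribed genes. KMT2A fusion proteins recruit it to genes such as HOXA9 and MEIS1, which keep leukemic cells immature, and DOT1L inhibitors lower these genes and let the cells take on monocytic features over days. UTX removes the repressive methyl marks from lysine 27 of histone H3 and also works, without that activity, as a part of the KMT2C and KMT2D complexes at enhancers. The quantity tested here was the response in sgUTX cells minus the response in control cells, each response being SGC0946 against DMSO as a log2 fold change. A positive value therefore means that SGC0946 raised a gene more, or lowered it less, in sgUTX cells. Levels are given as CPM, counts scaled to a common library size. They do not correct for gene length and are compared within a gene only. Where 4 sgUTX values are listed, the first pair is sgUTX_2 and the last pair sgUTX_4.

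Total counts per library were between 15480493 and 23262141. The 2 control DMSO libraries stood apart from the other 10: they lay at 67.6 and 75.0 on the second principal component, with every other library at 9.0 or below, and ribosomal protein genes took 17.7% and 18.9% of their counts against 11% to 13.1% elsewhere. Every difference of responses rests on them, so none can be given without both. Without replicate 1 of control DMSO 2222 genes were called higher and 2044 lower, and without replicate 2 the counts were 2099 and 1906. KDM6A itself was at 32 and 27.9 CPM in control DMSO and 35.1 and 34.5 in control SGC0946 libraries. It was at 14.7, 15.6, 49.4 and 46.2 in sgUTX DMSO and 14.4, 15.9, 43.2 and 48.9 in sgUTX SGC0946 libraries. Its transcript was lower with sgUTX_2 in DMSO (log2 fold change -0.99, adjusted p = 3.56e-10) and higher with sgUTX_4 (0.67, adjusted p = 1.94e-07), so the libraries labelled sgUTX_4 did not show a lowered transcript. A guide can disrupt a protein by a small edit that leaves the transcript level as it was, and counts per gene do not show such edits. Among markers of other cells, HBA1, HBA2, HBB, PF4, PPBP and MS4A1 were at 0 in every group. The summed level of 12 markers of adherent cells was 638 to 679 CPM in control DMSO, 1144 to 1270 in control SGC0946, 85.2 to 90 in sgUTX DMSO and 214 to 234 in sgUTX SGC0946 libraries. The only members called for the difference were PECAM1 and VIM, which leukemic cells also express, and 6 of the 12 markers stayed under 1 CPM everywhere. The part of these markers in other results was not tested.

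The response differed between the genotypes for 5240 of 15060 genes tested, or 34.8%, at an adjusted p under 0.05. It was higher in sgUTX cells for 2756 genes (18.3%) and lower for 2484 (16.5%). Of the calls, 52.6% were higher, a share that was 40.6% when libraries were scaled by their size alone. It was 48.2% with DESeq2 and 44.7% with no filter on low counts. With only sgUTX_2 or only sgUTX_4 beside the control libraries, it was 53.4% and 55.1%. Which direction held more calls thus depends on the setting. A difference of at least 2-fold was called for 1334 genes (8.86%), 665 higher and 669 lower. In control cells SGC0946 changed 7366 genes (48.9%), with 3725 up (24.7%) and 3641 down (24.2%). In sgUTX cells it changed 5097 (33.8%), with 2626 up (17.4%) and 2471 down (16.4%), although that comparison had 8 libraries and the control one 4. These shares are the background against which counts for gene lists are read below.

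Genes called for the difference were sorted by whether each response had itself passed the test. A response was named blunted when both passed in the same direction and the sgUTX response was smaller, enhanced when it was larger, and reversed when both passed in opposite directions. It was named lost when only the control response passed and gained when only the sgUTX response did. Loss was the most frequent class by this rule, with 2721 genes or 51.9% of the calls, of which 1237 had risen and 1484 had fallen in control cells. With classes set by the ratio of the responses, among genes with a 2-fold control response, 409 were lost and 495 blunted, so the order of these classes depends on the rule. The median response of the lost genes that rose was 0.65 in control and -0.01 in sgUTX cells. Blunting was found for 1026 genes (19.6%), with medians of 1.45 and 0.57 for the 508 that rose. A reversed response was found for 575 genes (11%): 324 rose in control and fell in sgUTX cells (medians 0.43 and -0.26), and 251 did the opposite (-0.52 and 0.36). A gained response was found for 654 genes (12.5%) and an enhanced one for 99. For the remaining 165 genes neither response passed. A lost response is one that missed the threshold in sgUTX cells, not one shown to be 0. The number of reversed genes was 379 without sgLuc SGC0946 replicate 1. The number of enhanced genes was 58 to 60 without any 1 of the 4 control libraries.

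**Figure D1:**
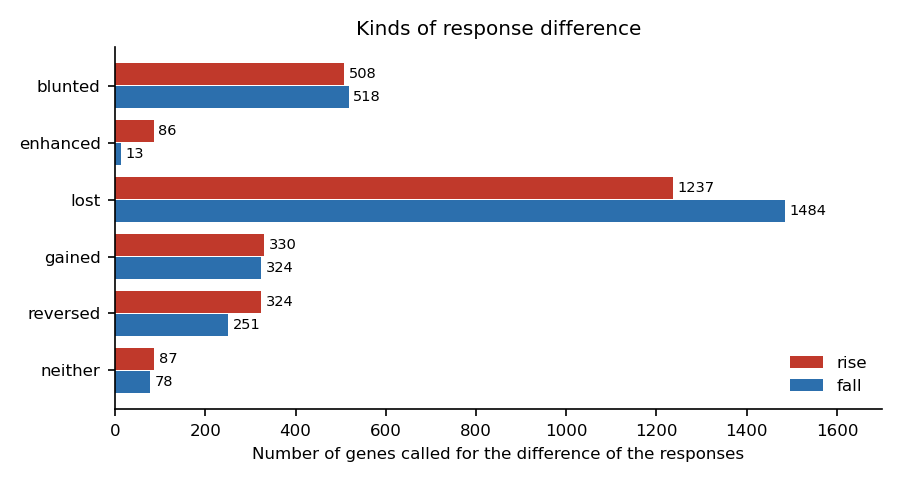
Number of genes (x axis) in each kind of response difference (y axis), among the 5240 genes called. Red bars are genes that rose and blue bars genes that fell with SGC0946 in control cells, or in sgUTX cells for gained responses; for the class with neither response called, the direction is the sign of the difference. Lost responses make the longest bars, with 1237 rising and 1484 falling genes, and enhanced falls the shortest, with 13.

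The 2 responses use separate libraries and can be set against each other across genes. Pearson's r was 0.576 and Spearman's rho 0.408 over the 15060 genes, and the slope of the sgUTX on the control response was 0.338. Over the 10986 genes with at least 5 CPM in a group r was 0.678. Genes are not replicates, so these are descriptions. Among the 1487 genes that SGC0946 raised at least 2-fold in control cells, the median response was 1.99 there and 0.89 in sgUTX cells. For the 719 genes lowered at least 2-fold, it was -1.44 and -0.30. Choosing genes by 1 genotype favours a smaller value in the other. The difference was called for 734 of the 1487 genes and 522 of the 719, with a smaller or opposite sgUTX response for 710 and 519. Of genes chosen by sgUTX cells, 962 raised at least 2-fold had medians of 1.70 there and 1.72 in control cells. The 154 lowered ones had -1.42 and -1.44. These medians cover differences both ways: it was called for 359 of the 962 and 65 of the 154, with a smaller or opposite control response for 197 and 32.

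**Figure D2:**
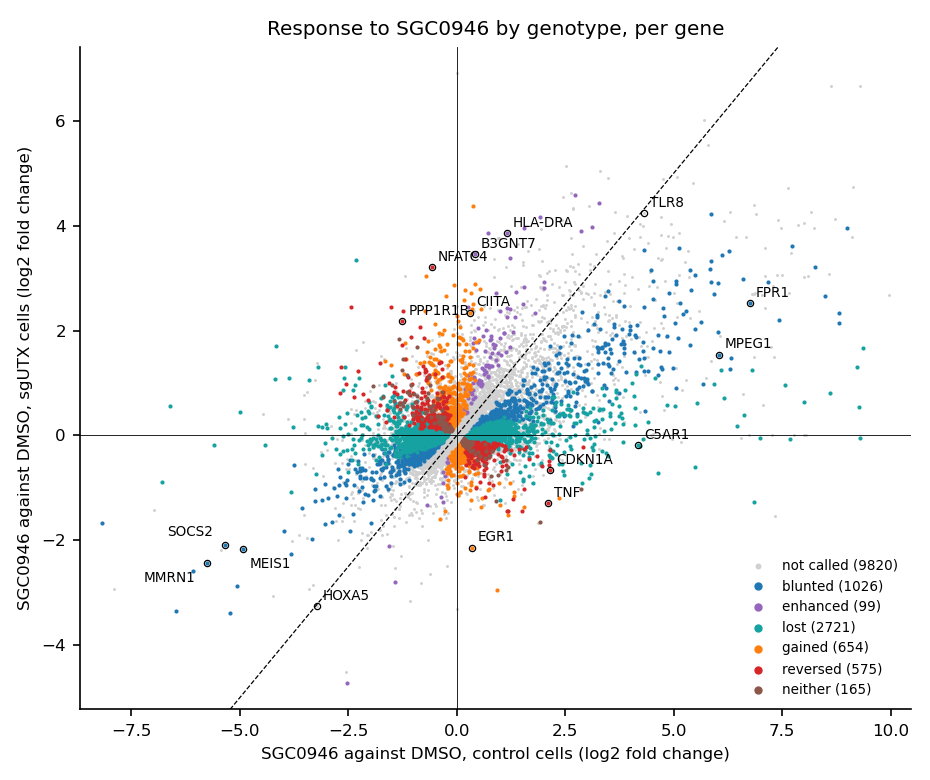
Each point is a gene, with its log2 fold change of SGC0946 against DMSO in control cells on the x axis and in sgUTX cells on the y axis; colours give the class and grey points were not called. Blunted genes lie between the x axis and the dashed line of equal responses, and lost genes lie along the x axis, on both sides of it. HOXA5 and TLR8 lie on that line, while CDKN1A and TNF lie below the x axis and NFATC4 and PPP1R1B lie above it on the left.

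Genes that KMT2A fusions sustain fell in both genotypes, and most of them fell less in sgUTX cells. Of 18 such targets, SGC0946 lowered 17 in control and 18 in sgUTX cells, and the list's median response was -1.51 and -1.11. The difference was called for 14, with 10 higher and 4 lower, and its median was 0.52 against 0.02 over all genes tested. MEIS1, a homeobox cofactor of HOXA9, was at 38.8 and 41 CPM in control DMSO and 1.87 and 0.776 in control SGC0946 libraries. In sgUTX cells it was at 18.8, 19.5, 26.6 and 24.6 with DMSO and 4.72, 5.71, 5.1 and 4.29 with SGC0946. SGC0946 thus left more MEIS1 in each sgUTX library than in either control library, although the DMSO level of each was lower. The difference of its responses was 2.76 (SE 0.31, adjusted p = 1.67e-06), with responses of -4.93 in control and -2.16 in sgUTX cells. PBX3, which binds DNA with both, had responses of -2.77 and -1.16 and a difference of 1.61 (SE 0.13, adjusted p = 1.43e-08). RUNX2, a runt-domain transcription factor, had responses of -2.97 and -1.18 and a difference of 1.79 (SE 0.14, adjusted p = 1.86e-09). FLT3, a receptor tyrosine kinase often mutated in this leukemia, and BCL2, the survival factor targeted by venetoclax, had smaller differences of 0.57 (SE 0.12, adjusted p = 0.000803) and 0.63 (SE 0.14, adjusted p = 0.00316).

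The 4 members called lower were HOXA3, HOXA6, MEF2C and JMJD1C, with differences of -2.19 to -0.55. HOXA6, a homeobox gene, was at 2.49 and 3.26 CPM in control DMSO, 0.302 and 0.665 in control SGC0946, 1.87, 2.67, 3.14 and 3.03 in sgUTX DMSO and 0.0446, 0.123, 0.113 and 0.102 in sgUTX SGC0946 libraries. Its difference of -2.19 (SE 0.67, adjusted p = 0.0139) rests on 17 reads in control and 8 in sgUTX SGC0946 libraries, and the adjusted p was 0.218 without sgLuc SGC0946 replicate 2 and 0.0593 with sgUTX_2 alone. Of its exonic length, 40.1% is shared with HOXA-AS3, so its counts are uncertain. HOXA9 was at 72 and 77.6 CPM in control DMSO, 30.3 and 30.3 in control SGC0946, 48.6, 42, 51.2 and 47.9 in sgUTX DMSO and 21.8, 24, 26.7 and 27 in sgUTX SGC0946 libraries. Its difference was 0.37 (SE 0.13, adjusted p = 0.0293), and the call was lost with DESeq2, with libraries scaled by size alone, with no filter on low counts, and without any 1 of sgLuc DMSO replicate 2, either sgLuc SGC0946 library or either sgUTX_4 SGC0946 library. HOXA5 fell in both genotypes, from 17.8 and 16.9 to 1.57 and 2.11 CPM in control libraries and from 11.1, 10.9, 10.8 and 10.6 to 0.579, 1.23, 1.19 and 1.58 in sgUTX libraries, with a difference of -0.02 (SE 0.28, adjusted p = 0.969). MEF2C, a transcription factor of immature myeloid cells, fell more in sgUTX cells, with responses of -1.56 in control and -2.11 in sgUTX cells and a difference of -0.55 (SE 0.1, adjusted p = 0.000196).

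Of 8 stem and progenitor genes tested, the response was called higher in sgUTX cells for 5 and lower for 0, with a median difference of 1.15. SOCS2, an inhibitor of cytokine receptor signaling, was at 90.04 and 92 CPM in control DMSO and 2.29 and 2.22 in control SGC0946 libraries. The sgUTX libraries held 46.2, 48.2, 56.6 and 53 CPM with DMSO and 12.1, 12.7, 11.9 and 11.3 with SGC0946. The groups did not overlap, and sgUTX SGC0946 libraries held more SOCS2 than either control SGC0946 library. Its difference was 3.25 (SE 0.16, adjusted p = 1.63e-12). DACH1, a transcriptional corepressor, went from 196 and 195 to 20.6 and 19.96 CPM in control cells, and from 176, 178, 189 and 193 to 79, 79.3, 76.8 and 75.7 in sgUTX cells. With near-equal levels in DMSO, the difference of 2.03 (SE 0.09, adjusted p = 1.84e-13) came with a higher level in every sgUTX SGC0946 library. MMRN1, a secreted protein of megakaryocytes and some stem cells, had responses of -5.76 and -2.43 and a difference of 3.34 (SE 0.27, adjusted p = 1.25e-06).

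The rise of monocyte and phagocyte genes was smaller in sgUTX cells. Of 22 genes of monocyte and macrophage identity, 11 were called lower and 1 (CSF1R) higher, and the list's median response was 3.24 in control and 1.13 in sgUTX cells. In these bulk libraries fewer cells that respond and less RNA per cell cannot be told apart. CD14, the lipopolysaccharide coreceptor, was at 8.65 and 8.55 CPM in control DMSO and 546 and 566 in control SGC0946 libraries. It was at 2.11, 2.59, 2.26 and 1.84 in sgUTX DMSO and 14.1, 13.1, 19.5 and 20.3 in sgUTX SGC0946 libraries. CD14 thus rose in both genotypes, but every sgUTX SGC0946 library stayed far below both control SGC0946 libraries. The difference was -3.11 (SE 0.29, adjusted p = 5.1e-06). MPEG1, a pore-forming protein of macrophages, had responses of 6.03 and 1.54 and a difference of -4.49 (SE 0.52, adjusted p = 0.00022). ITGAM (CD11b), the integrin chain used as a marker of myeloid maturation, had responses of 5.05 and 2.88 and a difference of -2.16 (SE 0.39, adjusted p = 0.00165). FPR1 and FPR2, receptors for bacterial formyl peptides, had differences of -4.23 (SE 0.48, adjusted p = 7.29e-06) and -2.87 (SE 0.22, adjusted p = 1.08e-06). Both belong to the list of neutrophil granule and maturation genes, most of which were not called. MPEG1 is in neither list and was named as a blunted rise with a large difference.

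For the complement receptor C5AR1 and the oxidase subunit NCF1 no response passed the test in sgUTX cells. C5AR1 was at 2.74 and 3.71 CPM in control DMSO, 56.4 and 60.05 in control SGC0946, 5.89, 5.44, 4.46 and 5.29 in sgUTX DMSO and 4.81, 4.72, 3.34 and 5.62 in sgUTX SGC0946 libraries. The sgUTX DMSO and SGC0946 values overlapped, and both control SGC0946 libraries lay above all others. The responses were 4.19 and -0.18, and the difference was -4.37 (SE 0.24, adjusted p = 5.18e-12). NCF1 was at 18.1 and 19 CPM in control DMSO, 164 and 171 in control SGC0946, 23.4, 22.4, 21.1 and 28.5 in sgUTX DMSO and 21.8, 24.9, 24.9 and 22.5 in sgUTX SGC0946 libraries, with a difference of -3.19 (SE 0.14, adjusted p = 1.72e-13). NCF1 has near-identical pseudogenes, so its counts are uncertain. Of the 6 subunits of the phagocyte oxidase, the enzyme that makes superoxide, 5 were called lower and 0 higher. CYBB, its catalytic subunit, had responses of 2.73 and 0.57 and a difference of -2.16 (SE 0.1, adjusted p = 7.79e-13).

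Of 10 Toll-like receptor genes and partners, which sense microbial molecules and include CD14, 7 were called lower and 0 higher, with a median difference of -1.12. Without sgLuc DMSO replicate 2, 4 were called lower. TLR1, which pairs with TLR2 to sense lipopeptides, went from 5.97 and 8.63 to 68.5 and 69.7 CPM in control cells, and from 4.42, 3.46, 3.97 and 3.89 to 11.3, 9.16, 12.5 and 14.5 in sgUTX cells. Its difference was -1.67 (SE 0.23, adjusted p = 1.1e-05). TLR8, a sensor of single-stranded RNA, rose in both without a detected difference: it went from 8.28 and 7.5 to 155 and 159.5 CPM in control and from 1.87, 1.62, 1.21 and 0.702 to 28.1, 24.9, 26.9 and 24.6 in sgUTX cells. The difference was -0.07 (SE 0.24, adjusted p = 0.854). MPO, the myeloperoxidase of immature granulocytes and monocytes, also rose in both, with responses of 2.51 and 2.21 and a difference of -0.29 (SE 0.42, adjusted p = 0.647). The difference for LYZ, the secreted lysozyme, was -1.36 (SE 0.46, adjusted p = 0.0505), and it passed the test with DESeq2, with libraries scaled by size alone, with 6 groups, with either KDM6A guide alone, and without sgUTX_2 DMSO replicate 2 or sgUTX_4 SGC0946 replicate 1. In the neutrophil granule and maturation list, 4 of 22 genes, FPR1 and FPR2 among them, were called lower and 1 higher, against backgrounds of 16.5% and 18.3%. The other 17 were not called. Its median difference was -0.7, with median responses of 3.36 in control and 2.12 in sgUTX cells. Of 12 lysosomal cathepsins and related proteins 5 were called lower and 1 higher. CTSB and CTSS, cysteine proteases of the lysosome, had responses of 1.11 and 1.21 in control and 0.11 and 0.08 in sgUTX cells, and differences of -1.0 (SE 0.09, adjusted p = 1.43e-08) and -1.13 (SE 0.09, adjusted p = 2.42e-09).

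**Figure D3:**
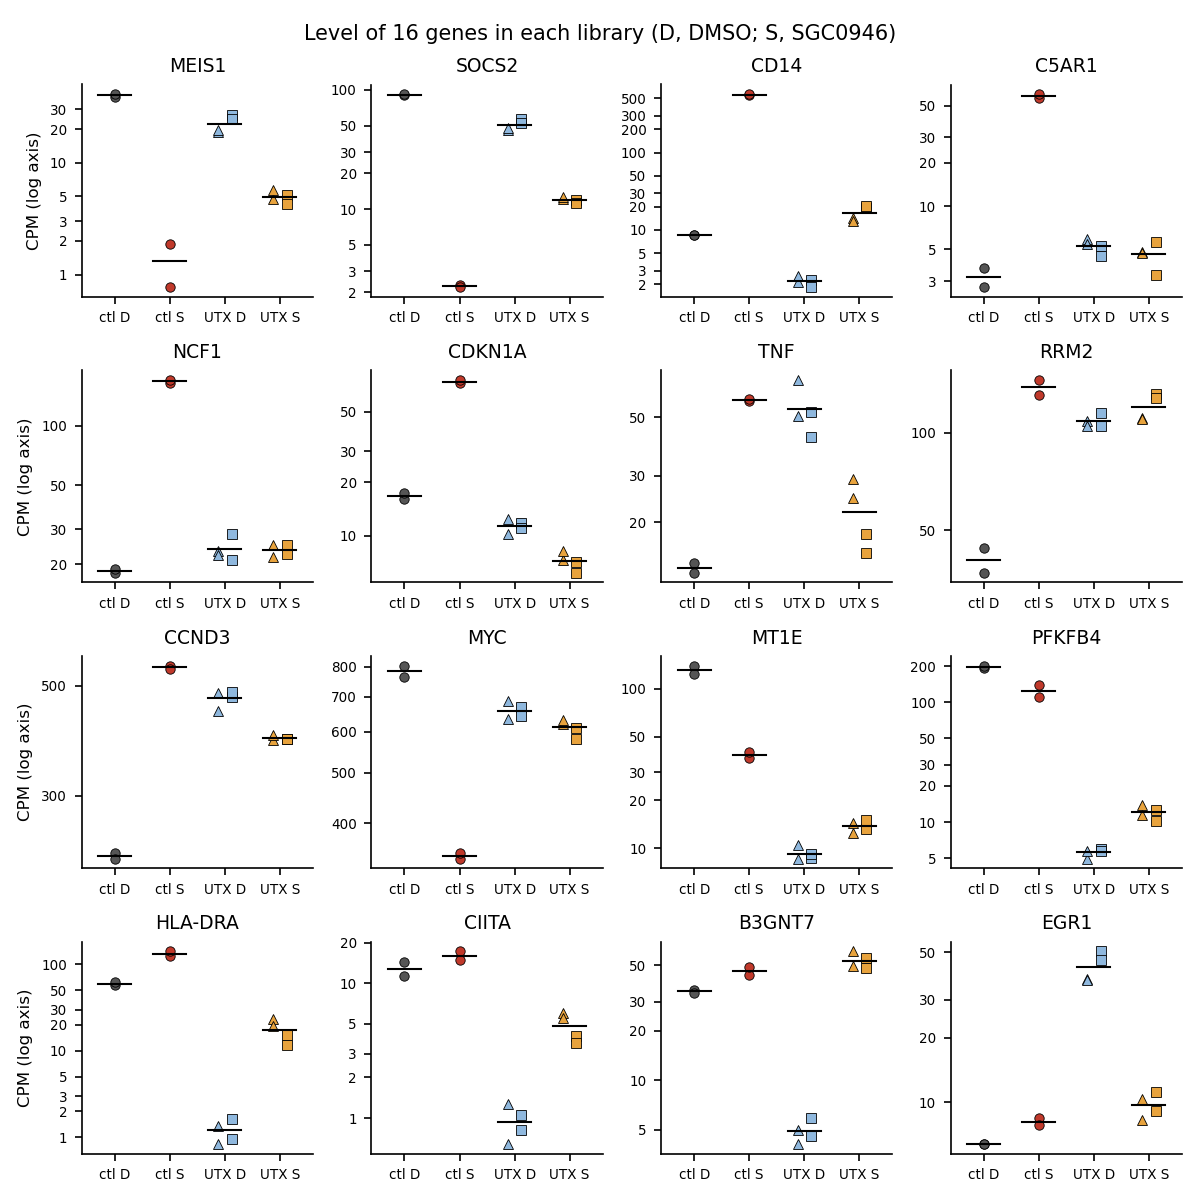
Level of 16 genes in CPM (log y axis) in every library, by group (x axis: ctl, control; UTX, sgUTX; D, DMSO; S, SGC0946). Circles are control libraries, triangles sgUTX_2, squares sgUTX_4 and bars group means; C5AR1 and NCF1 are high in control SGC0946 libraries alone, and HLA-DRA is lowest in sgUTX DMSO libraries, at 0.835 to 1.65 CPM.

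CDKN1A and CCND3, which regulate the cell cycle, moved in opposite directions in the 2 genotypes. CDKN1A (p21), an inhibitor of cyclin-dependent kinases, was at 16.1 and 17.3 CPM in control DMSO and 72.6 and 75.8 in control SGC0946 libraries. In sgUTX cells it was at 10.2, 12.4, 11.7 and 11.1 with DMSO and 7.27, 8.21, 7.08 and 6.19 with SGC0946. It rose in control cells (2.15) and fell in sgUTX cells (-0.66), with no overlap between treatments in either, and the difference was -2.81 (SE 0.15, adjusted p = 5.74e-12). CCND3, the D-type cyclin of myeloid cells, went from 230.5 and 224 to 548 and 539.6 CPM in control cells. In sgUTX cells it went from 482, 445, 475 and 486 to 389, 398, 390.2 and 389.6. CCND3 thus rose in control and fell in sgUTX cells, with a difference of -1.53 (SE 0.08, adjusted p = 3.93e-12). CDKN2C (p18), an inhibitor of CDK4 and CDK6, fell in both, with responses of -1.44 and -0.18 and a difference of 1.26 (SE 0.1, adjusted p = 1.4e-09). In the list of CDK inhibitors and G1 cyclins, 4 of 13 were called higher and 5 lower.

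Genes of DNA replication rose in control cells and fell or did not change detectably in sgUTX cells. Of 25 tested, 22 were called lower and 0 higher, with a median difference of -0.65. SGC0946 raised 21 of them in control cells (list median 0.61), whereas in sgUTX cells 14 fell and 0 rose (median -0.20). RRM2, the regulated subunit of ribonucleotide reductase, was at 44.2 and 37 CPM in control DMSO, 145 and 131 in control SGC0946, 109, 105, 115 and 105 in sgUTX DMSO and 111, 111, 132 and 128 in sgUTX SGC0946 libraries. The control DMSO libraries lay below all others, and the difference was -1.62 (SE 0.12, adjusted p = 1.35e-09). For 19 of the 22 called genes, the control DMSO group was the one that stood apart, at the lowest level. CCNE1 and CCNE2, the E-type cyclins that start S phase, had responses of 1.16 and 2.15 in control and -0.16 and -0.28 in sgUTX cells, with differences of -1.32 (SE 0.18, adjusted p = 8.59e-06) and -2.43 (SE 0.21, adjusted p = 8.32e-09). E2F2, a transcription factor that drives such genes, had responses of 1.09 and -0.21 and a difference of -1.3 (SE 0.18, adjusted p = 1.81e-05). Mitosis genes did not share this pattern: 9 of 20 were called higher and 2 lower, with a median of 0.21. BUB1, a spindle checkpoint kinase, had responses of -0.32 and 0.38, and KIF20A, a kinesin of cytokinesis, had -0.23 and 0.52, with differences of 0.7 (SE 0.12, adjusted p = 0.000164) and 0.75 (SE 0.16, adjusted p = 0.0012). MKI67, a proliferation marker, rose in both and more in control cells (1.11 against 0.34), with a difference of -0.77 (SE 0.1, adjusted p = 2.82e-06). None of the 9 mitosis genes stayed called in libraries of replicate number 1 alone, where each control group holds 1 library.

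E2F factors bind promoters through a short element, searched here as TTTNGCGC on both strands, with overlapping matches counted. It was found in 11 of 21 replication genes with a promoter in the RefSeq table (52.4%), against 500 of 27303 promoters (1.83%). Of the 21, 18 were called for the difference, and 9 of the 18 had a match. Whether the element goes with the response was not tested. Of the 9 called genes with a match, the 3 with the largest differences are shown, after genes of a single chromosome had been left out of the choice. These 3 therefore need not have the largest differences among all 9. Each promoter runs from 250 bases before to 50 after the start site on GRCh38.p14, with matches in capitals. E2F2 lies at chr1:23531184-23531483, minus strand, CDC6, a loader of the replicative helicase, at chr17:40287629-40287928, plus strand, and E2F1 at chr20:33686336-33686635, minus strand. The match begins 42 and 38 bases before the start site in E2F2, where 2 matches overlap, 7 bases after it in CDC6, and 20 before it in E2F1.
E2F2: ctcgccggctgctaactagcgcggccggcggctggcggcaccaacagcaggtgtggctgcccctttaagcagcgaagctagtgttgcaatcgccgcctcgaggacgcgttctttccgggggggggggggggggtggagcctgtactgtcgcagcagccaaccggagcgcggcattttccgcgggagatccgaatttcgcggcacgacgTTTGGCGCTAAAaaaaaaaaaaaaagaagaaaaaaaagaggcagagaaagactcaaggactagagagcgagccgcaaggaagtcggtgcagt
CDC6: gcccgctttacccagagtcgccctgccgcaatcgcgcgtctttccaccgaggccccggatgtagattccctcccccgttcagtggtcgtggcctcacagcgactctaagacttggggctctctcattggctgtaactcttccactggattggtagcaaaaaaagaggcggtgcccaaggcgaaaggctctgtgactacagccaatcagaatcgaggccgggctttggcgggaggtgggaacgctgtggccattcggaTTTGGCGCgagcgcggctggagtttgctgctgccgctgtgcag
E2F1: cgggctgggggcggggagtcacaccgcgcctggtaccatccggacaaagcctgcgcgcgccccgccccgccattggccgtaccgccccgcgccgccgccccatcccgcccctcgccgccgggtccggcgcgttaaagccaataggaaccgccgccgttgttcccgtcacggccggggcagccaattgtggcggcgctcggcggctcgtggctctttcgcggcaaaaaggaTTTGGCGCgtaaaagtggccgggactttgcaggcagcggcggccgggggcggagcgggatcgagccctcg
A match is a stretch of letters and not a measured binding site.

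MYC and ribosomal protein genes fell in control cells and not detectably in sgUTX cells. MYC, the growth-promoting transcription factor, was at 766 and 804 CPM in control DMSO and 342 and 351 in control SGC0946 libraries. It was at 687, 636, 669.6 and 642 in sgUTX DMSO and 622, 632, 611 and 582 in sgUTX SGC0946 libraries. The fall in control cells was -1.18, against -0.11 in sgUTX cells, and the difference was 1.07 (SE 0.08, adjusted p = 2.17e-09). NPM1 and FBL, nucleolar proteins needed to build ribosomes, had responses of -0.85 and -0.78 in control and -0.09 and -0.04 in sgUTX cells, and differences of 0.76 (SE 0.09, adjusted p = 1.26e-06) and 0.74 (SE 0.08, adjusted p = 4.16e-07). Of 37 cytoplasmic ribosomal proteins, 36 were called higher and 0 lower, with a median difference of 0.55 and median responses of -0.57 in control and -0.01 in sgUTX cells. RPL13 was at 4715 and 5183 CPM in control DMSO, 2853 and 2979 in control SGC0946, 2656, 2518, 2469 and 2500.4 in sgUTX DMSO and 2576, 2661, 2524 and 2479 in sgUTX SGC0946 libraries. For each of the 36 called ribosomal genes the control DMSO group stood apart as the highest, the same libraries that stood apart as a whole. Without control DMSO replicate 1 or 2, 36 and 32 of them were called. With 1 control library per treatment, 4 ribosomal genes were called in libraries of replicate number 1 alone. In the wider list of MYC and ribosome biogenesis genes, 9 of 21 were called higher and 2 lower. Aminoacyl tRNA synthetases, which charge tRNAs with amino acids, mostly fell in both genotypes. Of 18 tested, SGC0946 lowered 17 in control and 14 in sgUTX cells, with median responses of -0.68 and -0.43. The difference was called higher for 8, lower for 0 and not called for 10. KARS, 1 of the 8, had responses of -0.78 and -0.13. Of 22 subunits of the mitochondrial respiratory chain 8 were called higher and 0 lower, and UQCRC2 of complex III had responses of -0.71 and -0.0.

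**Figure D4:**
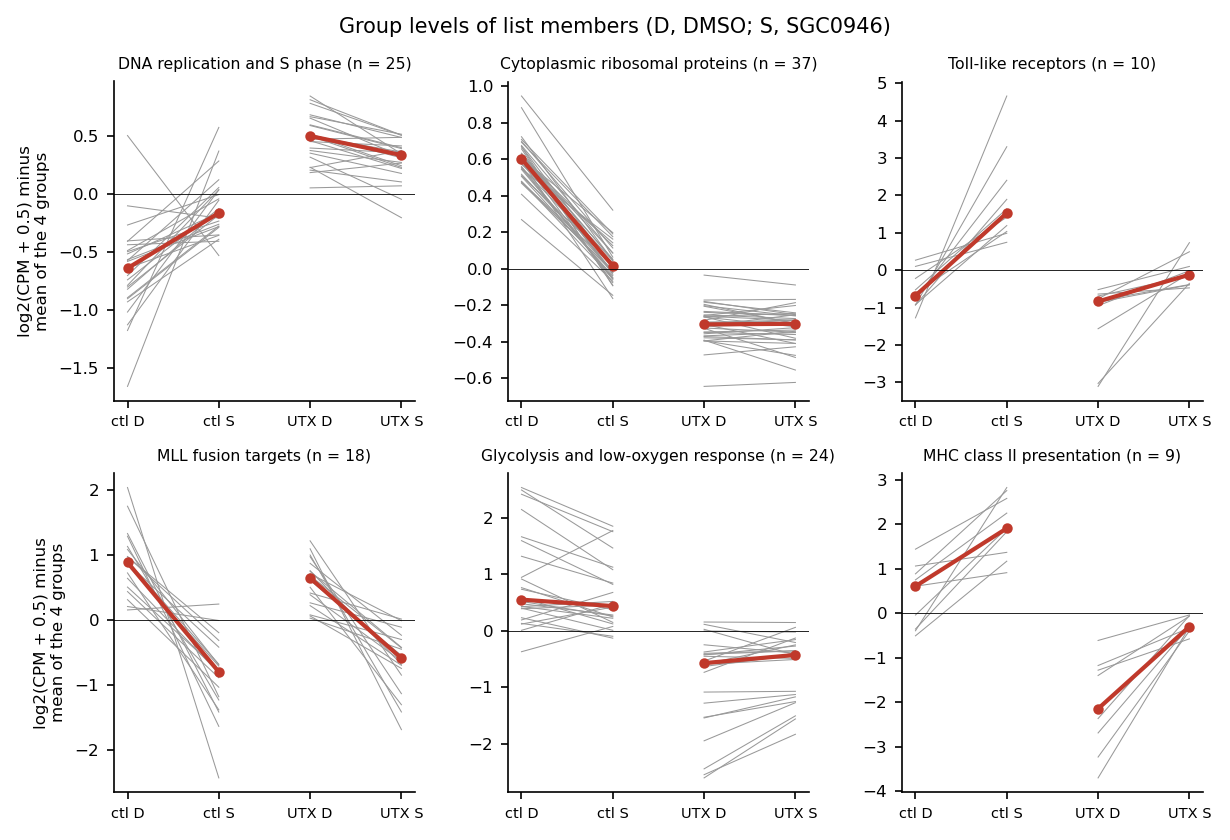
Group levels (x axis as ctl, control; UTX, sgUTX; D, DMSO; S, SGC0946) of the tested members of 6 lists, as log2(CPM + 0.5) of the group mean minus the mean of the 4 groups (y axis). Grey lines are genes and red lines medians; ribosomal proteins are highest and replication genes lowest in control DMSO, and class II genes are lowest in sgUTX DMSO.

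The responses were reversed for 3 of 16 chemokine and cytokine genes and for 4 of 24 genes of MAPK feedback and the immediate early response, against 575 of all 15060 genes. TNF, the proinflammatory cytokine, was at 12.9 and 14.1 CPM in control DMSO and 57.3 and 58.7 in control SGC0946 libraries. The sgUTX libraries held 50.4, 69.1, 42.2 and 52.2 CPM with DMSO and 29.2, 24.6, 15.4 and 18.1 with SGC0946. The levels in sgUTX DMSO libraries spanned those of control SGC0946, and the difference was -3.39 (SE 0.4, adjusted p = 0.000194). IL1B, interleukin 1 beta, went from 12.2 and 13.4 to 46.8 and 53 CPM in control cells and from 9.82, 7.41, 11.4 and 9.62 to 7.22, 6.24, 6.29 and 5.73 in sgUTX cells. Its difference was -2.54 (SE 0.19, adjusted p = 1.37e-09). CR1, the complement receptor for C3b, rose by 1.49 in control cells and had a response of -1.44 in sgUTX cells, with a difference of -2.93 (SE 0.22, adjusted p = 2.68e-07). The chemokines CCL2 and CXCL8, which attract monocytes and neutrophils, rose in both, with responses of 5.22 and 2.73 in control and 2.32 and 1.01 in sgUTX cells, and differences of -2.9 (SE 0.34, adjusted p = 5.82e-06) and -1.72 (SE 0.08, adjusted p = 1.14e-12). In the list of chemokines and inflammatory cytokines, 5 of 16 were called lower and 3 higher.

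Among 24 genes of MAPK feedback and immediate early response, 13 were called lower and 1, MYC, higher, with a median of -0.70. EGR1, an early growth response transcription factor linked to monocyte differentiation, was at 6.41 and 6.36 CPM in control DMSO, 8.39 and 7.82 in control SGC0946, 37.7, 37, 50.5 and 46.1 in sgUTX DMSO and 10.3, 8.3, 9.12 and 11.1 in sgUTX SGC0946 libraries. Only the sgUTX response passed the test (-2.14, against 0.34 in control cells), and the sgUTX DMSO libraries lay above all others. The difference was -2.48 (SE 0.22, adjusted p = 2.33e-08). DUSP1, a phosphatase that switches off MAP kinases, had responses of 2.23 and 0.0 and a difference of -2.23 (SE 0.32, adjusted p = 1.27e-05). IER3, an immediate early gene, had responses of 2.13 and -0.48, and TRIB1, a pseudokinase that targets C/EBP alpha for degradation, had 2.13 and -0.57. Their differences were -2.61 (SE 0.24, adjusted p = 2.43e-07) and -2.7 (SE 0.27, adjusted p = 1.49e-07). G0S2, an inhibitor of fat breakdown, also reversed, with responses of 1.19 and -1.44 and a difference of -2.63 (SE 0.2, adjusted p = 1.58e-09).

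Regulators of myeloid maturation showed differences in both directions, with 8 of 16 lineage transcription factors called lower and 4 higher. CEBPE, needed for late granulocyte maturation, went from 40.8 and 36.3 to 116 and 110.5 CPM in control cells and from 108, 99.2, 98.3 and 102 to 75.2, 77.2, 94.8 and 95.1 in sgUTX cells. It rose in control and fell in sgUTX cells, with a difference of -1.8 (SE 0.13, adjusted p = 2.41e-09). KLF4, a factor of monocyte differentiation, rose in both, by 2.04 and 0.73, and differed by -1.31 (SE 0.24, adjusted p = 0.000166). The 4 lineage factors called higher had differences of 0.38 to 0.83. STAT5A, which carries cytokine signals to the nucleus, belongs to another list, that of cytokine signaling feedback. It fell in control (-1.19) and rose in sgUTX cells (0.67), with a difference of 1.86 (SE 0.24, adjusted p = 2.47e-06).

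Of 20 p53 targets, 11 were called lower and 5 higher, with a median of -0.52. Besides CDKN1A, TP53INP1, a stress-induced nuclear protein, had responses of 2.36 and 0.37, and PMAIP1 (NOXA), a proapoptotic BH3-only protein, had 1.18 and 0.1. Their differences were -1.98 (SE 0.29, adjusted p = 1.41e-05) and -1.09 (SE 0.12, adjusted p = 4.17e-07). In the BCL2 family, which sets the threshold of apoptosis, 3 of 15 were called higher and 5 lower. BCL2A1, a prosurvival member of monocytic cells, went from 47 and 55.3 to 150.2 and 165 CPM in control cells, and from 27.8, 25.3, 30.7 and 30.8 to 24.4, 25.7, 29.2 and 25.6 in sgUTX cells, with a difference of -1.75 (SE 0.13, adjusted p = 8.73e-10). BIK, a proapoptotic member, had a gained rise of 1.91 in sgUTX cells, against -0.09 in control cells, and a difference of 2.0 (SE 0.31, adjusted p = 2.28e-05). Its sgUTX levels of 4.1, 4.35, 3.68 and 2.71 CPM with SGC0946 stayed below the control levels of 9.24 and 8.1. Interferon-stimulated genes were mixed, with 7 of 25 lower and 3 higher. IFIT1 and IFIT3, which act against viral RNA, had responses of 1.55 and 1.68 in control and -1.02 and -0.34 in sgUTX cells, with differences of -2.57 (SE 0.47, adjusted p = 0.000177) and -2.01 (SE 0.35, adjusted p = 9.16e-05).

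SGC0946 lowered 15 of 24 glycolytic and low-oxygen genes in control cells and raised 12 in sgUTX cells. For the difference, 12 were called higher and 2 lower, with a median difference of 0.30 and median responses of -0.36 in control and 0.16 in sgUTX cells. Of the 14 called, 7 had a reversed response. PFKFB4, which makes the activator of glycolytic phosphofructokinase, was at 194 and 202 CPM in control DMSO and 111 and 139 in control SGC0946 libraries. In sgUTX cells it was at 4.96, 5.7, 5.95 and 5.78 with DMSO and 14, 11.5, 12.6 and 10.2 with SGC0946. Its rise in sgUTX cells started from far below the control level and did not reach it, and the difference was 1.77 (SE 0.15, adjusted p = 2.25e-08). ALDOC and ENO2, glycolytic enzymes, and ADM, the vasodilator peptide adrenomedullin, had responses of -1.03, -1.09 and -0.69 in control cells. In sgUTX cells their responses were 0.97, 0.85 and 1.09. The differences were 2.0 (SE 0.35, adjusted p = 0.00231), 1.94 (SE 0.26, adjusted p = 5.82e-06) and 1.78 (SE 0.4, adjusted p = 0.00169).

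The low-oxygen factors HIF1 and HIF2 bind the core ACGTG. It was found on either strand in 10 of 22 promoters of the list (45.5%) and in 21.6% of all 27303 promoters. The promoters of ALDOC (chr17:28576846-28577145, minus strand) and ENO2 (chr12:6914330-6914629, plus strand), the called genes with a match and the largest differences, are shown with the core in capitals. In ALDOC, 2 of the 3 matches overlap on opposite strands and form CACGTG.
ALDOC: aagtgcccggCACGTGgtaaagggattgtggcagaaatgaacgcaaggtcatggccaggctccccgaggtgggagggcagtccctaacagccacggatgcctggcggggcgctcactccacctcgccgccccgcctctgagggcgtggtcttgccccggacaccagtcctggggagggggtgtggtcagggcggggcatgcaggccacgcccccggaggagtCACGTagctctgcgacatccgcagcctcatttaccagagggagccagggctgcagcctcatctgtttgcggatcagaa
ENO2: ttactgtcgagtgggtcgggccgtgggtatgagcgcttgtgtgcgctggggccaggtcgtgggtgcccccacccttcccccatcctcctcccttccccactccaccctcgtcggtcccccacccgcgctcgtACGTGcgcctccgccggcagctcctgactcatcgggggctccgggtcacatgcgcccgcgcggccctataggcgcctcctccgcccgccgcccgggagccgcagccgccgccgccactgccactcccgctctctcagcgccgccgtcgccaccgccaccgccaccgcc
The ENO2 promoter has 1 match.

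Metallothioneins, small proteins that bind zinc and copper, were listed with the zinc exporter SLC30A1. Of the 6 genes tested, 2 rose and 3 fell in control cells, and 4 rose and 0 fell in sgUTX cells. The difference was called higher for 3 and lower for 0, and the 3 were metallothioneins. MT1E was at 139.8 and 124 CPM in control DMSO, 36.8 and 40.3 in control SGC0946, 10.5, 8.64, 8.71 and 9.18 in sgUTX DMSO and 12.4, 14.5, 13.3 and 15.1 in sgUTX SGC0946 libraries. It fell in control (-1.78) and rose in sgUTX cells (0.58), with no overlap between treatments in either, and the difference was 2.35 (SE 0.13, adjusted p = 1.42e-11). MT1X had responses of -2.05 and 0.68 and MT2A of -2.21 and 0.2, with differences of 2.74 (SE 0.29, adjusted p = 1.98e-07) and 2.41 (SE 0.43, adjusted p = 0.00252). The genes of this family are near copies of each other, so their counts are uncertain. The zinc-sensing factor MTF1 binds a metal response element, searched as TGCACNC or TGCGCNC on both strands. It was in 3 of 3 promoters of this list found in the table, 2 of them of called genes, and in 29.3% of all promoters. The promoters of MT1X (chr16:56682220-56682519, plus strand) and MT2A (chr16:56608334-56608633, plus strand) hold 4 and 8 matches, in capitals, against a mean of 0.412 per promoter in the table.
MT1X: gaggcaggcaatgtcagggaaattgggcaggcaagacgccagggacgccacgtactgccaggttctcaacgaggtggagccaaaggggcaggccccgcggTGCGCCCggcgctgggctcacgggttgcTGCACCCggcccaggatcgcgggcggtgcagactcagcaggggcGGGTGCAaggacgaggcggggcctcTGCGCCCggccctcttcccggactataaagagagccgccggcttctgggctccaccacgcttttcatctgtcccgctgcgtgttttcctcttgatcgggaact
MT2A: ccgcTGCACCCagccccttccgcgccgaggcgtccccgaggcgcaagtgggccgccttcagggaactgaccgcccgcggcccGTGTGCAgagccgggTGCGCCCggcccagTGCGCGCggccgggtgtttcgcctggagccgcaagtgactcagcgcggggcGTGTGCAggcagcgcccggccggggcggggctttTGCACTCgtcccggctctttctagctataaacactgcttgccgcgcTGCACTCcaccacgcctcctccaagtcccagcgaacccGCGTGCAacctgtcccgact
The E2F and metal elements were chosen after the gene lists' values had been seen.

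Other genes fell in control and rose in sgUTX cells. NFATC4, a calcium-regulated transcription factor, was at 13.3 and 9.01 CPM in control DMSO, 8.99 and 6.04 in control SGC0946, 0.295, 0.0877, 0.221 and 0.216 in sgUTX DMSO and 2.09, 1.89, 1.76 and 1.89 in sgUTX SGC0946 libraries. Its difference was 3.79 (SE 0.42, adjusted p = 3.18e-07). PPP1R1B, an inhibitor of protein phosphatase 1, had responses of -1.26 and 2.19 and a difference of 3.45 (SE 0.21, adjusted p = 1.35e-09). TENT5C, a poly(A) polymerase lost in some myelomas, had -2.15 and 0.78 and a difference of 2.93 (SE 0.2, adjusted p = 2.17e-10). Of 14 genes of MHC class I presentation, which shows intracellular peptides to T cells, 6 were called higher and 0 lower. HLA-B fell in control (-0.38) and rose in sgUTX cells (0.32), with a difference of 0.69 (SE 0.09, adjusted p = 5.41e-06). EEF1A2, an elongation factor of translation, and SLC29A4, a monoamine transporter, had the lost falls -3.77 and -2.99, against 0.16 and 0.15 in sgUTX cells. Their differences were 3.93 (SE 0.5, adjusted p = 2.11e-06) and 3.14 (SE 0.3, adjusted p = 3.68e-08).

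Genes of MHC class II presentation, which shows extracellular peptides to T cells, rose with SGC0946 in both genotypes: of 9 tested, 8 rose in control and 9 in sgUTX cells. The response was called higher in sgUTX cells for 5 and lower for 0, with median responses of 1.92 in control and 3.16 in sgUTX cells. For HLA-DPB1, HLA-DQB1, HLA-DMA and HLA-DMB no difference was called. HLA-DRA was at 57.7 and 61.9 CPM in control DMSO and 124 and 141 in control SGC0946 libraries. It was at 0.835, 1.36, 1.65 and 0.972 in sgUTX DMSO and 23.4, 19.5, 15.2 and 11.7 in sgUTX SGC0946 libraries. The larger factor of HLA-DRA started from a far lower level, and every sgUTX SGC0946 library stayed below both control DMSO libraries. The difference was 2.71 (SE 0.4, adjusted p = 0.000636). For each of the 5 called class II genes sgUTX DMSO stood apart as the lowest group. CIITA, the activator that class II genes depend on, was at 14.3 and 11.4 CPM in control DMSO, 17.2 and 14.8 in control SGC0946, 0.639, 1.27, 1.05 and 0.81 in sgUTX DMSO and 6.02, 5.54, 4.02 and 3.58 in sgUTX SGC0946 libraries. Only its sgUTX response passed the test, and the difference was 2.03 (SE 0.31, adjusted p = 2.57e-05). HLA-DPA1 and HLA-DRB1 had differences of 2.25 (SE 0.36, adjusted p = 4.84e-05) and 2.39 (SE 0.4, adjusted p = 7.46e-05). The HLA genes vary between people and resemble each other, so the counts of single members are uncertain. The CCAAT box was in 6 of 7 class II promoters of the table and in 35.7% of all promoters. Of the 7, 3 were of genes called for the difference, and 2 of the 3 had the box. Whether the box goes with the response was not tested.

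Other enhanced and gained rises also started from low levels in sgUTX DMSO. B3GNT7, an enzyme that extends sugar chains, was at 35.3 and 33.9 CPM in control DMSO, 43.3 and 48.8 in control SGC0946, 4.96, 4.08, 5.9 and 4.59 in sgUTX DMSO and 60.5, 49.4, 54.8 and 47.9 in sgUTX SGC0946 libraries. With SGC0946 every sgUTX library reached or exceeded the lower control library, and the difference was 3.04 (SE 0.16, adjusted p = 4.83e-12). CD70, a costimulatory ligand of the TNF family, was at 73.5 and 83.2 CPM in control DMSO, 74.8 and 81.5 in control SGC0946, 11.6, 12.2, 6.01 and 6.43 in sgUTX DMSO and 49.6, 53.1, 35.5 and 39.1 in sgUTX SGC0946 libraries, with a difference of 2.28 (SE 0.38, adjusted p = 0.00169). ACE, angiotensin-converting enzyme, and BEGAIN, a synaptic scaffold protein, had responses of 3.86 and 2.78 in sgUTX cells against 0.71 and 0.19 in control cells, and differences of 3.15 (SE 0.41, adjusted p = 2.76e-06) and 2.59 (SE 0.29, adjusted p = 3.42e-07). ANPEP (CD13), a myeloid surface peptidase, rose by 0.78 in control and 1.5 in sgUTX cells, with a difference of 0.73 (SE 0.11, adjusted p = 1.18e-05). Of the 86 enhanced rises, 79 had sgUTX DMSO as the group that stood apart, at the lowest level, as did 271 of the 330 gained rises. The sgUTX SGC0946 group stood apart as the highest for 6 of the enhanced and 44 of the gained rises. The same group levels define these classes, so the outcome was largely set by the class and is only a description.

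Only 13 falls were enhanced. TRIB3, a pseudokinase induced by amino acid stress, was at 184 and 199.6 CPM in control DMSO, 154 and 153 in control SGC0946, 506, 475, 528 and 551 in sgUTX DMSO and 209, 222, 205 and 225 in sgUTX SGC0946 libraries. It fell in both genotypes, with a difference of -0.94 (SE 0.09, adjusted p = 8.18e-08). ATF3, a transcription factor of the same stress response, rose in control (1.31) and fell in sgUTX cells (-1.22), with a difference of -2.52 (SE 0.18, adjusted p = 7.14e-10). In the integrated stress response list as a whole, 8 of 21 were called higher and 4 lower. KDM6B, the other H3K27 demethylase, had a gained fall: its responses were 0.08 and -0.46, with levels of 93, 97.8, 93.8 and 99 CPM in sgUTX DMSO and 76.1, 67.6, 64.7 and 70.3 in sgUTX SGC0946 libraries. The difference was -0.54 (SE 0.09, adjusted p = 7.97e-05). HBEGF, a growth factor of the EGF family, had responses of -0.39 and -1.6 and a difference of -1.21 (SE 0.23, adjusted p = 0.000305).

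Of 12 polycomb repressive complex 2 genes, which write H3K27 methylation, 3 were called lower, 0 higher and 9 not called. Of all genes tested, 34.8% were called and 16.5% called lower, and the list's median difference was 0.01. The 3 were EZH2, EED and SUZ12, its core. EZH2 went from 29.8 and 26.5 to 41.3 and 40.5 CPM in control cells and from 76.5, 77.4, 69.9 and 80.5 to 60.3, 62.3, 54.9 and 58.5 in sgUTX cells, with a difference of -0.9 (SE 0.11, adjusted p = 1.41e-06). EED had responses of 0.67 and -0.18 and a difference of -0.85 (SE 0.14, adjusted p = 6.47e-05). Of 19 partners of UTX and COMPASS subunits, which write H3K4 methylation, 7 were called lower and 2 higher. SETD1B and CXXC1, both of SET1 complexes, went opposite ways, with differences of -0.75 (SE 0.12, adjusted p = 3.64e-05) and 0.79 (SE 0.1, adjusted p = 3.59e-06). DOT1L, the target of SGC0946, fell in both, with responses of -0.4 and -0.36 and a difference of 0.04 (SE 0.09, adjusted p = 0.741). Of 14 genes of DOT1L and super elongation complexes, 5 were called higher and 2 lower, and ELL2, an elongation factor, had responses of 2.55 and 1.34 and a difference of -1.22 (SE 0.18, adjusted p = 2.53e-05). AFF3, a scaffold of these complexes, had responses of -0.91 and 0.02 and a difference of 0.93 (SE 0.11, adjusted p = 1.52e-06).

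Of 25 genes of cholesterol and fatty acid synthesis, 1 was called higher and 2 lower, with medians of 0.48 in control and 0.60 in sgUTX cells, against a background of 34.8% of all genes called. Of 12 amino acid transporters 2 were called higher and 0 lower, and of 6 drug efflux pumps 2 were called lower. In the list of deoxynucleotide and cytarabine metabolism, 6 of 14 were called lower and 2 higher. SAMHD1, which destroys deoxynucleotides and the active form of cytarabine, rose in both, by 2.34 in control and 1.37 in sgUTX cells, with a difference of -0.97 (SE 0.08, adjusted p = 1.1e-08). CDA, which inactivates cytarabine, had responses of 1.06 and 1.24 and a difference of 0.18 (SE 0.28, adjusted p = 0.672).

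**Figure D5:**
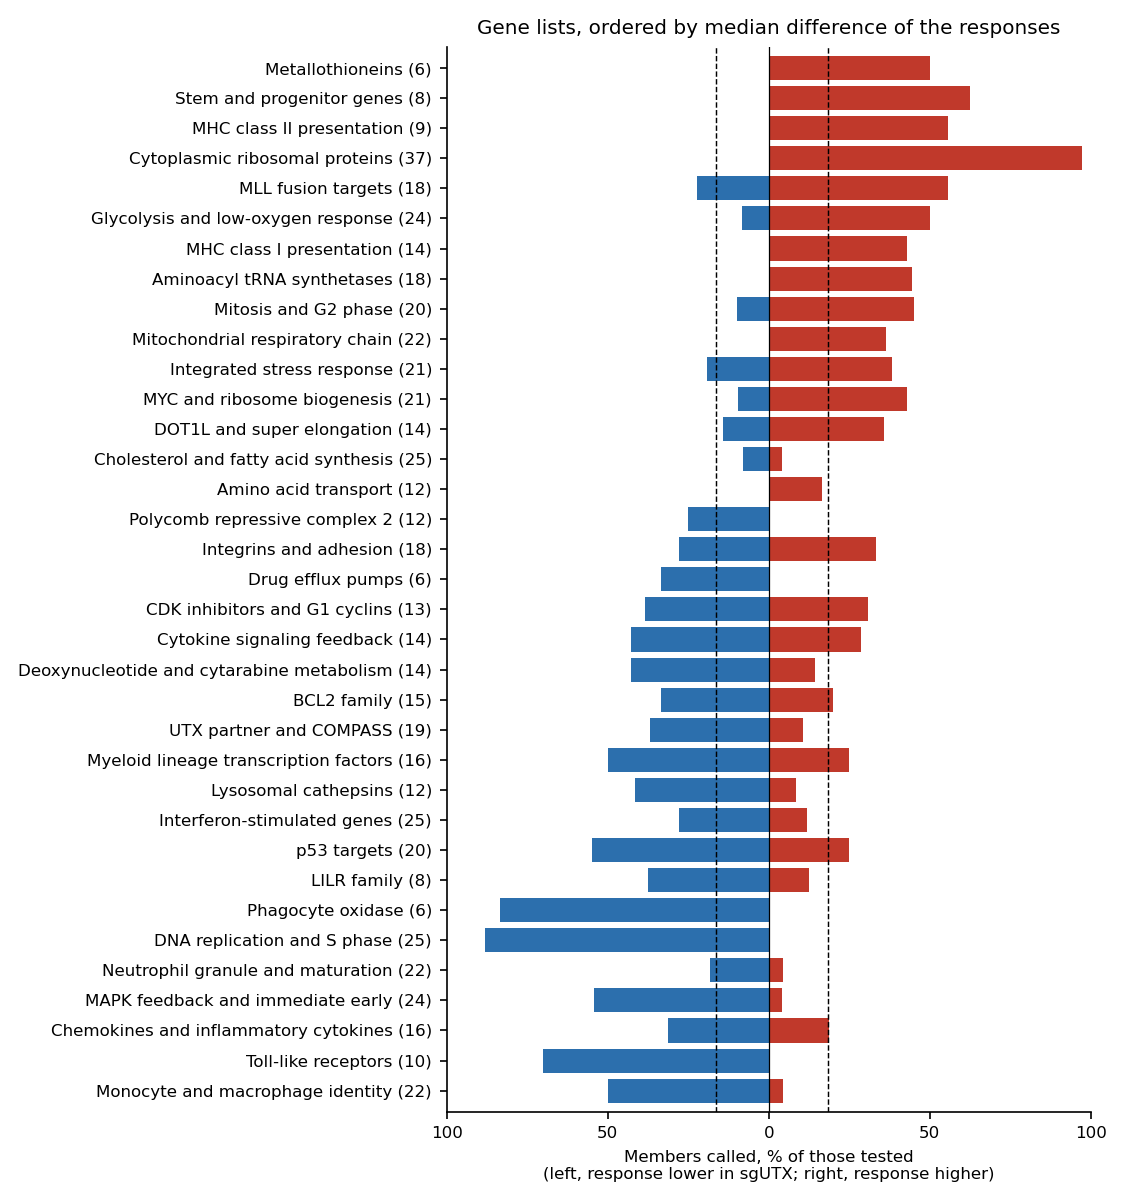
Share of the tested members of each list (x axis, %; number tested in parentheses) called with a higher response in sgUTX cells (red, right) or a lower one (blue, left), ordered by the list's median difference (y axis). Dashed lines are the shares over all genes tested, 18.3% and 16.5%; ribosomal proteins (36 of 37 higher) and replication genes (22 of 25 lower) reach furthest past them.

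A difference of responses can come from any of the 4 groups. For each gene called, the group was found whose mean lay farthest from the mean of the other three, on the log2(CPM + 0.5) scale. This description was added after the values had been seen. The calls and classes come from the same levels and limit which group can stand apart. Such counts for classes and lists, here and above, are therefore no separate support. Of the 5240 genes, control DMSO stood apart as the highest for 1386 and as the lowest for 1106. Control SGC0946 was the highest for 1002 and the lowest for 891. The sgUTX DMSO group was the lowest for 416 and the highest for 250, and sgUTX SGC0946 the lowest for 127 and the highest for 62. Over all 15060 genes tested, control DMSO was the highest for 2894 and the lowest for 2720, and control SGC0946 for 2680 and 2563. The sgUTX DMSO group was the lowest for 1432 and the highest for 1393, and sgUTX SGC0946 for 608 and 770. The control groups thus stood apart most often over all genes too. Their means rest on 2 libraries and the sgUTX means on 4, and the part of this was not tested. Monocyte genes had control SGC0946 as the highest for 10 of 12 called, as did the Toll-like list for 7 of 7. Of the 14 glycolytic and low-oxygen genes called, 10 had control DMSO as the highest, and so had 3 of 3 metallothioneins.

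With the guides as replicates, differences between them count as error, also for KDM6A, whose transcript differs in opposite directions with the 2 guides. In a fit with 6 groups, which keeps the guides apart and averages their responses, 3165 genes were called higher and 2826 lower, against 2756 and 2484. Each KDM6A guide was also set against the control guide on its own in that fit. The difference of responses was called for 5403 genes with sgUTX_2 (35.9%) and 5025 with the libraries labelled sgUTX_4 (33.4%). Both share the control libraries. Of the 5240 genes called with the guides as replicates, 4116 were called with each guide alone in the same direction. The responses of the 2 guides, which share no library, had r = 0.685 over the 15060 genes and 0.887 over the 10986 with at least 5 CPM in a group. They differed from each other for 10 genes (0.0664%), with 974 at an unadjusted p under 0.05. For MEIS1, CD14, CDKN1A, MYC and HLA-DRA no such difference was called. Across the same 10986 genes, the difference of responses in libraries of replicate number 1 and in those of replicate number 2 had r = 0.805. These coefficients describe genes, which are not replicates.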

How the data were processed

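RNA of 12 libraries was measured as raw counts, deposited by the authors in 1 table of 58735 Ensembl identifiers. The submitters' processing notes name the aligner STAR 2.5.1b and genome build hg19. All 58735 identifiers are in GENCODE 29, an annotation of GRCh38, which gave the symbols, so the build behind the counts is uncertain. How reads were counted, and with which strand setting, is not given in the sources used here. Reads of overlapping genes therefore cannot be told apart: of its exonic bases CCNE2 shares 37.1%, LYZ 34%, HOXA9 27%, IER3 26.5%, VIM 24.4%, ACE 23.9%, CIITA 23.4% and RRM2 20.2% with other genes.

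Counts were fitted in R 4.3.3 with edgeR 4.0.16 (TMM, filterByExpr, robust two-sided quasi-likelihood F-tests) over all 12 libraries in 4 groups, with 8 residual degrees of freedom and a common biological coefficient of variation of 0.0775. Each adjusted p is a Benjamini-Hochberg value over 15060 genes, called under 0.05. CPM values use TMM factors, 0.887 and 0.854 for control DMSO. A fit of 6 groups gave each guide its own mean. Libraries of a group differed by more than sampling noise (chi-square per gene 2.85 to 6.29), so each was kept. On simulated data with 14579 genes, 74% of 2-fold and 95% of 4-fold differences of responses were recovered, and 4.52% of the calls were false. There, 100 genes were changed by each factor, groups were otherwise equal, and the spread was the one fitted here. In the data 34.8% of genes were called and control DMSO libraries stood apart, so these rates need not hold for them.

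The members, the 40 lists and the tests were chosen with earlier results of these data known. Named genes came from a rule: per class and direction, the 5 protein-coding genes with the largest difference among those with at least 10 counts in each group, 5 CPM in 1 group and a call with each guide; and per list, up to 4 called members with the largest difference and up to 2 uncalled with the largest control response, besides KDM6A, KDM6B and DOT1L. The text gives a part of these, and results of a few single genes are not reported here. CDC6 and E2F1 appear for their promoters, and genes that differed between guides for that difference. Of 698 list symbols, 1 had no identifier. Promoters are from RefSeq (GRCh38.p14), 300 bases each, and those of HLA-DRA, MT1E, CIITA and PFKFB4 are not analysed here. Besides the elements above, the C/EBP-ATF element was in 3 of 17 promoters of the integrated stress response list (17.6%, against 3.67% of all promoters). The sterol element was in 1 of 19 of the cholesterol list (5.26%, against 1.15%). The E-box was in 5 of 15 of the MYC list (33.3%, against 7.44%). Alternatives were DESeq2 1.42.0, library size scaling, no filter, each guide alone, a replicate block, a stricter threshold, classes by ratio, and leaving out libraries.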

Additional observations from a re-analysis of the deposited data

Results flagged for a closer look

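The response to SGC0946 differed between the genotypes for 5240 genes by the interaction test, which is the subject of the report. It differed between the 2 KDM6A guides for 10: EPX, MMRN1, PRG3, GATA2, MT-TC, BST2, NWD1, KCNH2, AL365181.3 and ARHGEF3. These were named for that difference after their values were seen. EPX and PRG3, granule proteins of eosinophils, had responses of 1.63 and 2.05 with sgUTX_2 and of 2.85 and 3.2 with sgUTX_4. GATA2, a transcription factor of stem cells, mast cells and eosinophils, had responses of -1.33 and -2.27. For MMRN1 the response of sgUTX_4 minus that of sgUTX_2 was -0.73 (adjusted p = 0.00442 in the edgeR fit of 6 groups). BST2, an interferon-stimulated membrane protein, had 1.05 and 1.6.

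In 4 of 198 combinations of a named gene and an sgUTX group, 1 library lay far from the other 3 by Dixon's test, which flags about 1 group in 20 by chance. ELL2 was at 17.1 CPM in sgUTX_4 DMSO replicate 1, with the other sgUTX DMSO libraries at 13.9 to 14.3. RUNX2 was at 53.6 CPM in sgUTX_2 DMSO replicate 1, against 62.7 to 64.5 in the others. FLT3 was at 72.3 CPM in sgUTX_2 DMSO replicate 2, against 82.4 to 84.3. CCND3 was at 398 CPM in sgUTX_2 SGC0946 replicate 2, against 389 to 390.2. No call of these 4 genes was lost without that library.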

How the results depend on the processing

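Of 99 named genes, 92 were called, and none of these reversed its sign under any of 7 other settings or 14 ways of leaving out libraries. Of the 92, 73 kept their call throughout. Named genes that were not called did change sign: HOXA5 (0.315 with sgUTX_4 and control libraries only, and -0.214 to 0.213 when libraries were left out), TLR8 (0.022 with 6 groups, 0.45 with sgUTX_4 only, and -0.271 to 0.116 when libraries were left out), DOT1L (-0.047 with library size scaling and -0.017 with no filter) and KDM6A (-0.585 to 0.05 when libraries were left out). Their causes were not tested.

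At an adjusted p under 0.01, 1830 genes were called higher. With classes set by the ratio of the responses among genes with a 2-fold control response, 495 were blunted, 27 enhanced, 409 lost and 325 reversed. Enhanced genes numbered 158 with 6 groups and 159 with sgUTX_4 only.

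Leaving out libraries gave 619 to 2761 genes higher and 638 to 2518 lower, and 336 to 693 and 334 to 674 at 2-fold. It gave 140 to 992 blunted, 15 to 111 enhanced, 149 to 691 gained, 829 to 2864 lost, 60 to 180 neither and 64 to 581 reversed. List counts were 4 to 37 for ribosomal proteins, 11 to 23 for replication, 7 to 13 for glycolysis, 8 to 15 for MAPK, 6 to 11 for KMT2A fusion targets, 3 to 10 for MYC, 0 to 10 for mitosis, 5 to 13 for monocyte genes, 3 to 5 for the oxidase, 4 to 7 for Toll-like receptors and 6 to 12 for p53 targets. The low ends came from leaving out all libraries of 1 replicate number, which leaves 1 control library per treatment, assumed to vary like the other groups. The low end for Toll-like receptors was also reached without sgLuc DMSO replicate 2.

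Replicate numbers did not pair the samples: deviations of same-numbered libraries had r between -0.111 and 0.0731. With a replicate block 2632 genes were higher and 2403 lower, and no call of a named gene changed. Leaving out the sgLuc DMSO libraries 1 at a time kept the call of each of the 92 genes except HOXA9. Depth limits genes of few counts, whose differences have the larger errors.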
